A study of Homo sapiens and Mus musculus with 19 samples.

Results

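Nodal and BMP4 are secreted ligands of the TGF-β family, and the 9 genes described here are these ligands together with genes that carry, limit or read out their signals: Nodal, Lefty1, Lefty2, Tdgf1, Smad7, Bmp4, Id1, Id2 and Id3. The rule names the genes and uses no measured value, though the genes were chosen with earlier results of these data known. Each gene was matched by its Ensembl identifier to a GENCODE symbol in the mouse embryonic stem (mES) cell tables. All 9 were present among the 54446 genes of those tables, and all 9 passed the filter on low counts that left 27603 genes for testing. RNA was sequenced from the chromatin fraction of mES cells, so the values describe chromatin-associated RNA (caRNA), which is rich in unspliced transcripts. The cells had been transfected with a control siRNA (siControl, 3 libraries) or with an siRNA against Nsun2 (siNsun2, 3 libraries), an RNA methyltransferase that makes 5-methylcytosine. The genotype labels read control and Nsun2 knockdown and name no other allele. Both groups were grown in serum with LIF, the GSK3 inhibitor CHIR99021 and the MEK inhibitor PD0325901, and were passaged on gelatin to clear feeder cells. The methods of the study allow for single siRNAs or a pool against 1 transcript, and which was used for these libraries is not given in the sources used here. The study calls the replicates behind its genome-wide data biological, while the labels only number the libraries and do not tie them to cultures. The p-values measure the spread between these libraries, which would be partly technical if cultures were shared.

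Nodal binds activin receptors together with its co-receptor, the GPI-anchored protein Cripto that Tdgf1 encodes, and acts through SMAD2, SMAD3 and SMAD4 with FOXH1. Lefty1 and Lefty2 are secreted antagonists of Nodal and are themselves targets of the pathway, which closes a negative feedback loop. SMAD7 is an intracellular inhibitor of TGF-β family receptors. BMP4 acts through SMAD1 and SMAD5, and Id1, Id2 and Id3 are classical BMP targets whose proteins bind E proteins such as TCF3 through a helix-loop-helix and keep them from DNA. In mouse ES cells cultured with LIF, BMP signalling and the Id genes are known for restraining neural differentiation.

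The libraries differed between the groups before any single gene was considered. The siControl libraries held 62989044 to 66832780 reads in genes, and the siNsun2 libraries held 58078323 to 59411087. Reads that the counting gave to no feature made up 19.9% ± 0.348 (SD, n = 3) of records in siControl and 29.4% ± 0.464 (SD, n = 3) in siNsun2. The feature type and strand option of the counting are not given, so these may include intronic or antisense reads within genes. Nsun2 itself fell from 129 ± 3.45 to 103 ± 3.55 CPM (reads per 1000000 gene reads, scaled by TMM, mean ± SD, n = 3), a log2 change of -0.34 (SE 0.03, edgeR adjusted p = 2.78e-16). The median change of genes at a mean log2 CPM of 5 or more, a level that Nsun2 also reached, was -0.21. The cells carried the markers of their label. Of 9 ES cell markers, 8 could be tested, and Sox2, inside the non-coding gene Sox2ot and on its strand, was listed at 0 throughout. The summed level of the ES cell markers was 1790 to 1816 CPM in siControl and 1374 to 1403 CPM in siNsun2, far above the 1.36 to 3.18 CPM of the neural markers in either group. These sums hold 9 and 3 genes and were not set per length, and the neural marker Sox1 was also listed at 0 throughout.

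Lefty2, Tdgf1 and Smad7 were lower in siNsun2 caRNA. None of the 9 genes was called higher by edgeR with TMM on all genes tested. None was higher at an unadjusted p under 0.05 (0 of 9), and none was called higher by DESeq2 (0 of 9). Other scalings did give higher calls. Id3 was called higher after scaling by total gene counts (0.62, edgeR adjusted p = 0.0253). Scaling by highly expressed genes gave higher calls for Id3 (0.65, edgeR adjusted p = 0.0189) and Nodal (0.17, edgeR adjusted p = 0.0270). Lefty2, Tdgf1 and Smad7 were called lower under both. With TMM on all genes tested, the means of Nodal differed by less than the SD of its siNsun2 libraries. In that fit the edgeR test did not separate the groups for Lefty1, Bmp4, Id1, Id2 or Id3. Calls rest on adjusted p-values under 0.05 from the edgeR quasi-likelihood test with Benjamini-Hochberg adjustment over all genes tested. With 3 of 9 genes called, the share was below the 50.2% of all tested genes that passed. Among all genes 25.8% were called higher and 24.3% lower. The 3 called genes are also the only ones of the 9 whose mean log2 CPM reached 5, a level at which 87.2% of 5519 genes were called and 78.8% were called lower. The ranges of the libraries did not overlap for 4 of the 9 genes, with siNsun2 below for 3 and above for 1, as was so for 56.7% of all genes tested, 26.3% below and 30.3% above. The median log2 change was -0.29 over the 9 genes and 0.14 over all genes tested. The libraries are bulk samples, in which fewer cells of a type and less RNA per cell cannot be told apart.

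**Figure D1:**
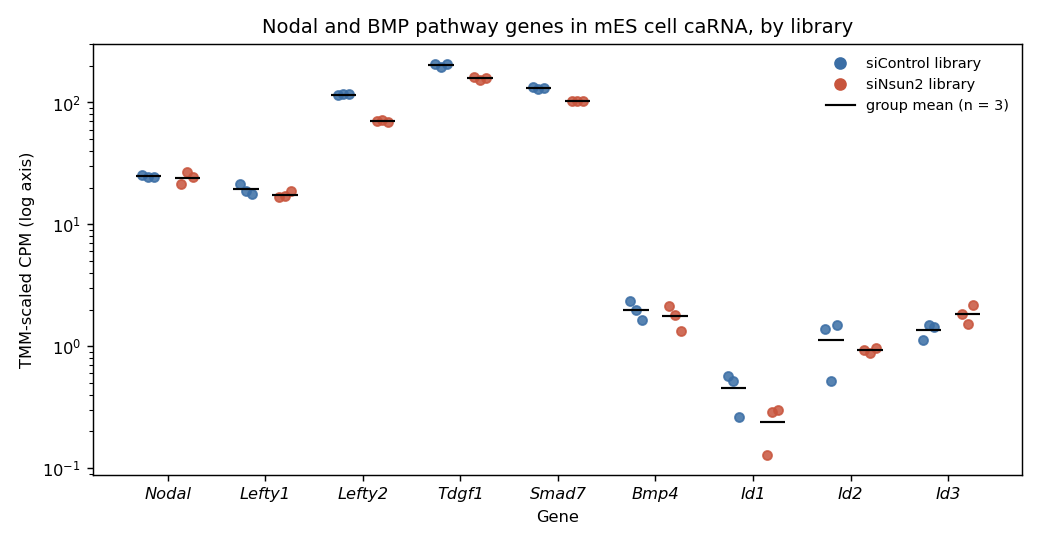
Level of each of the 9 genes in every siRNA library, as TMM-scaled CPM on a log axis, with points for libraries and bars for the means of 3 libraries. The siNsun2 points of Lefty2, Tdgf1 and Smad7 lie wholly below the siControl points, those of Id3 lie above, and the ranges of the other 5 genes overlap.

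Tdgf1 encodes the co-receptor and was abundant on chromatin. It stood at 207, 196 and 209 CPM in the siControl libraries 1 to 3. In the siNsun2 libraries it was at 162, 152 and 159 CPM. Every siNsun2 library was below every siControl library, and the log2 change was -0.37 (SE 0.03, edgeR adjusted p = 6.02e-21), or 0.773 of the siControl level. Tdgf1 lies on chromosome 9, positions 110939603 to 110946158 on the minus strand (GRCm38). Read counts behind these values were 9486 to 12961 per library.

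Nodal, the ligand of this co-receptor, was not called with TMM on all genes tested. Its levels were 25.6, 24.5 and 24.6 CPM in siControl and 21.3, 26.6 and 24.7 CPM in siNsun2. The siNsun2 libraries spread on both sides of the siControl ones, from 1339 to 1659 reads. The log2 change was -0.04 with a 95% interval of -0.17 to 0.09 (edgeR adjusted p = 0.627). Its sign turned positive when libraries were scaled by total gene counts or by highly expressed genes. It was also positive with a stricter filter on low counts and without siNsun2 library 1. With TMM on highly expressed genes Nodal was called higher (0.17, edgeR adjusted p = 0.0270). The gene spans positions 61417972 to 61425338 of chromosome 10 on the plus strand.

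Lefty1 and Lefty2 are neighbouring copies on the plus strand of chromosome 1, and their transcripts can be told apart only in part. Lefty2 spans positions 180893108 to 180899103 and Lefty1 spans 180935022 to 180938400. The coding sequences of 1 protein-coding transcript of each gene (GENCODE M21) both hold 1104 bases in 4 coding exons and are identical at 1014 positions, or 91.8%.

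The 120-base window with the most differences is shown, since reads from it separate the genes. It covers coding positions 46 to 165 in the first coding exon (chr1:180935155-180935274 in Lefty1 and chr1:180893229-180893348 in Lefty2), and capitals mark the 34 bases that differ.
Lefty1: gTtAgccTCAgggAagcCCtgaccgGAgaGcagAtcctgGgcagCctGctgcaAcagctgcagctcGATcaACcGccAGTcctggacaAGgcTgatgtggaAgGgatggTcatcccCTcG
Lefty2: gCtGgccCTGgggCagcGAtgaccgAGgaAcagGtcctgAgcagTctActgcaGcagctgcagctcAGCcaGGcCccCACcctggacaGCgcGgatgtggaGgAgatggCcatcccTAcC
Of all 50-base stretches, 17.9% of the Lefty1 transcript also occur in Lefty2 and 11.6% of the Lefty2 transcript in Lefty1, so that counts of both are uncertain to the extent that such reads were set aside or placed on either gene. Introns and flanking bases were not compared.

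Lefty2 showed the largest called change of the 9 genes. Its siControl libraries stood at 114, 117 and 117 CPM. Its siNsun2 libraries stood at 70.7, 71.3 and 69.3 CPM. The groups were far apart relative to the spread within either, and the log2 change was -0.72 (SE 0.03, 95% interval -0.79 to -0.65, edgeR adjusted p = 5.53e-34), or 0.607 of the siControl level. Of all genes tested 2.17% were called lower by more than 0.5 on the log2 scale. Only 33 of the 5519 genes whose mean log2 CPM reached 5 had a lower log2 change. By comparison 575 of them were lower than Tdgf1, and 671 were lower than Smad7.

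Lefty1 was at 21.3, 18.9 and 17.8 CPM in siControl and at 16.86, 16.97 and 18.83 CPM in siNsun2. These ranges overlapped, since siNsun2 library 3 was above siControl library 3. The log2 change was -0.14 (SE 0.07, edgeR adjusted p = 0.103). The call depended on the setting: Lefty1 was called lower without siControl library 3 (adjusted p = 0.0324) and without siNsun2 library 3 (adjusted p = 0.0432), while its sign turned positive under 2 of the scalings. Across the 13 alternatives tried its adjusted p ran from 0.0159 to 0.666.

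Ratios of read counts between genes of the same library need no scaling and were compared for 5 pairs, which were picked after the levels had been seen. Ratios do not remove differences that go with level. The median log2 change was -0.21 for genes whose mean log2 CPM reached 5 and 0.14 over all genes tested. Lefty2, Tdgf1 and Smad7 reached that level, and Nodal and Lefty1 did not. Lefty2 reads outnumbered Lefty1 reads 6.02 times in siControl and 4.02 times in siNsun2, as geometric means over 3 libraries. These counts were not set per length, and Lefty2 is the longer gene. On the log2 scale the ratio was 2.43, 2.63 and 2.71 in the siControl libraries and 2.07, 2.07 and 1.88 in the siNsun2 libraries, a difference of -0.58. The ratio of Lefty2 to Nodal went from 4.66 to 2.92, a difference of -0.67 on the log2 scale. Lefty2 over Tdgf1 differed by -0.35, Tdgf1 over Nodal by -0.33 and Smad7 over Nodal by -0.31 on the log2 scale. In all 5 pairs every siNsun2 library was below every siControl library. Each pair had a gene called lower (Lefty2, Tdgf1 or Smad7) on top, and the pairs share genes. The separation was thus partly set by the choice of pairs. How often pairs of other genes separate in this way was not counted. The two-sided exact permutation p was 0.1 for each pair and 0.1 after adjustment over the 5, which is the smallest that 3 libraries against 3 allow.

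**Figure D2:**
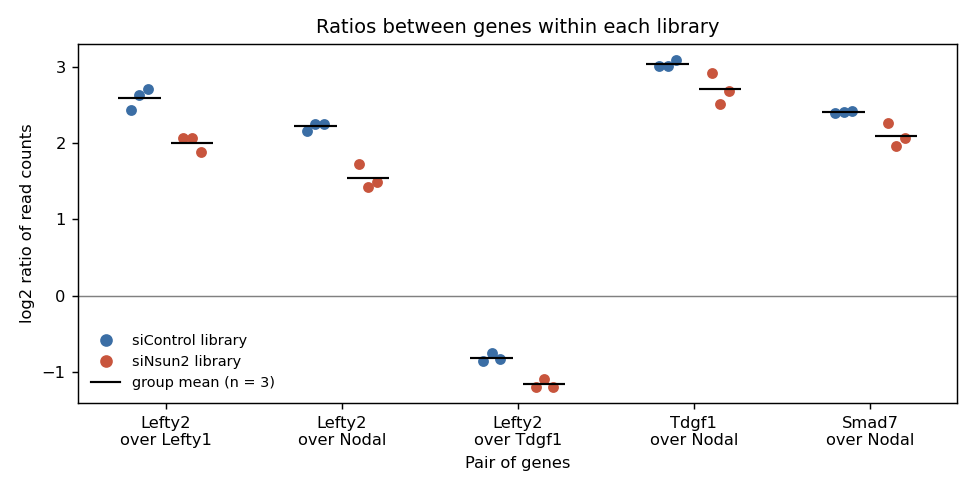
log2 ratio of read counts for 5 pairs of genes, with points for libraries and bars for the means of 3 libraries. In each pair the 3 siNsun2 points lie below the 3 siControl points, and the differences between the means run from -0.67 for Lefty2 over Nodal to -0.31 for Smad7 over Nodal. The pairs were picked after the levels had been seen, each with a gene called lower on top.

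Genes around the Lefty pair that are named here had smaller changes than Lefty2. Tmem63a, a membrane protein gene 3943 bases beyond Lefty1, was at 13.4 ± 0.472 and 13.6 ± 0.746 CPM, with a log2 change of 0.02 (edgeR adjusted p = 0.869). On the other side of Lefty2 the nearest annotated gene was the pseudogene Gm18036, which had 0 to 12 counts per library and was not tested. Further out Sde2 was called at -0.24, H3f3a at -0.22 and Ephx1 at 0.23, and each had a mean log2 CPM of 3 or more. The differences between these genes and Lefty2 were not tested.

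**Figure D3:**
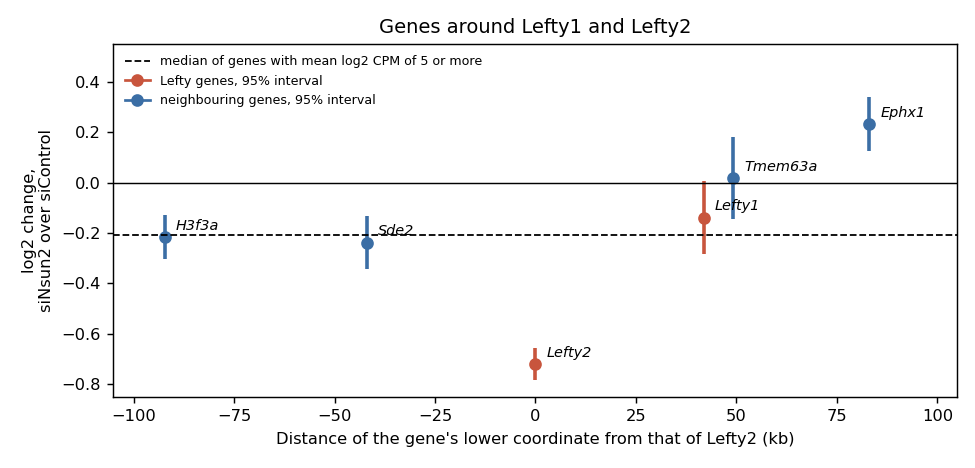
log2 change with its 95% interval against the distance of each gene's lower coordinate from that of Lefty2, in kb, for 6 genes of the region whose mean log2 CPM reached 3. Lefty2 stands at -0.72, while the other 5 genes lie between -0.24 and 0.23.

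Smad7, the inhibitory SMAD, was at 135, 130 and 131 CPM in siControl. It was at 102.2, 103.7 and 103.7 CPM in siNsun2. The groups did not overlap, with 7725 to 8466 reads against 6415 to 6523, and the log2 change was -0.36 (SE 0.03, edgeR adjusted p = 4.18e-18). The gene spans positions 75367529 to 75395935 of chromosome 18 on the plus strand, and 15.9% of that span is exon.

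How far these changes stood from 0 depended on the scaling. Of genes whose mean log2 CPM reached 5 only 8.35% were called higher, against the 25.8% of all genes tested. The median log2 change of all genes tested was 0.14 with TMM, 0.07 with DESeq2 size factors, 0.32 with total gene counts and 0.34 with TMM computed on genes of mean log2 CPM of at least 5. Of the called genes 51.5%, 44.9%, 79.9% and 84.4% were higher in these 4 settings. Lefty2 fell in all 4, by 0.72, 0.78, 0.54 and 0.51 on the log2 scale. Tdgf1 and Smad7 were also called lower in all 4, with changes of -0.16 and -0.15 at their smallest. Against the median of genes at a mean log2 CPM of at least 5, which was -0.21 with TMM, Lefty2 lay at -0.51, Tdgf1 at -0.16, Smad7 at -0.15 and Nodal at 0.17. Against the median of all genes tested the same 4 genes lay at -0.86, -0.51, -0.49 and -0.18. Relative to other genes, Nodal thus lay on opposite sides by the set of genes it was held against.

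**Figure D4:**
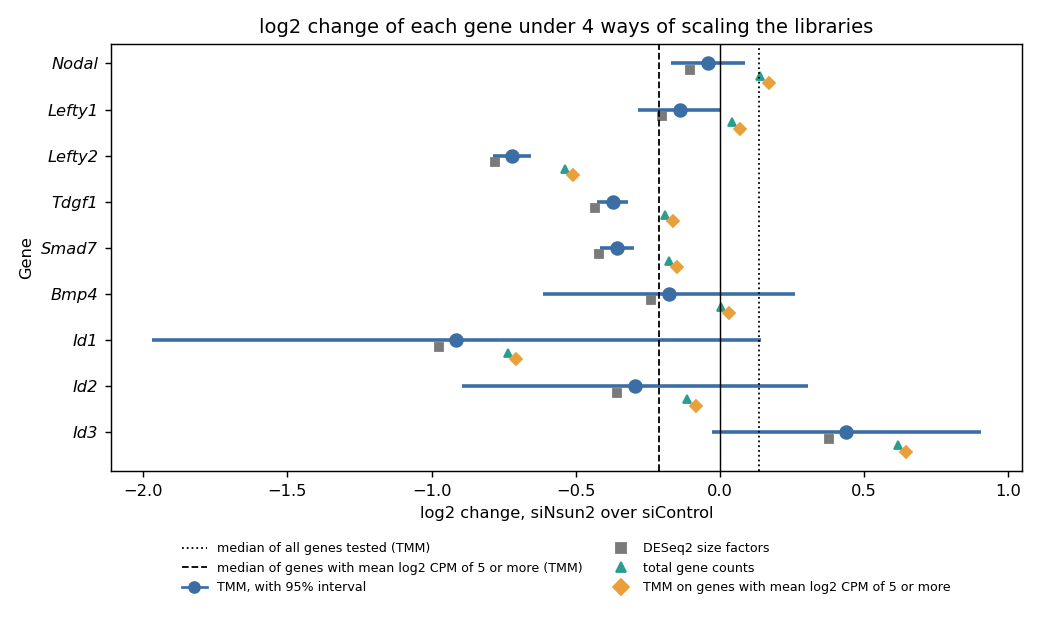
log2 change of each gene between siNsun2 and siControl under 4 scalings, with the 95% interval for TMM and vertical lines at 0 and at the median of all genes (0.14) and of highly expressed genes (-0.21). Lefty2, Tdgf1 and Smad7 stay below 0 under each scaling, whereas Nodal, Lefty1 and Bmp4 fall on both sides of 0.

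Bmp4 was weakly present, with 84 to 147 reads per library. Its levels were 2.34, 1.97 and 1.64 CPM in siControl and 2.14, 1.80 and 1.34 CPM in siNsun2, with overlapping ranges. The log2 change was -0.18 with an interval of -0.61 to 0.26 (edgeR adjusted p = 0.522), and it lay just above 0 under 2 scalings. Bmp4 lies on the minus strand of chromosome 14, positions 46383520 to 46390669, and overlaps the genes Gm15217 and Gm15222 on the opposite strand. Whether counting used the strand is not given in the sources used here, so reads from these genes cannot be told apart from those of Bmp4 with certainty.

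The Id genes are short and share their helix-loop-helix. The 120-base coding window with the most bases in common is shown for 1 protein-coding transcript of each of the 3 genes (GENCODE M21, in the coding frame and without gaps), since it is the region through which the proteins pair with E proteins. Capitals mark the 77 bases that all 3 genes share. It lies in the first coding exon of each, at chr2:152736518-152736637 on the plus strand for Id1, chr12:25095783-25095902 on the minus strand for Id2 and chr4:136144002-136144121 on the plus strand for Id3.
Id1: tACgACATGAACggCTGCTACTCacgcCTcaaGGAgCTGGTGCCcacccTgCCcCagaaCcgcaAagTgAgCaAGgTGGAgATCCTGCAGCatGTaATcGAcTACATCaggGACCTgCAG
Id2: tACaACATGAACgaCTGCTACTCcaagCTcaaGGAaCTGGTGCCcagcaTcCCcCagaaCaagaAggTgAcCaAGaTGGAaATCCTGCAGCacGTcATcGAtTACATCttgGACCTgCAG
Id3: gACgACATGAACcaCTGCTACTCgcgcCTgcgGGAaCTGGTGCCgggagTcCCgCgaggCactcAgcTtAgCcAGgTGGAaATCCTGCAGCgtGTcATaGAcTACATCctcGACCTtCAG
Aligned over their coding sequences, Id1 and Id2 were identical at 74.5% of positions, Id1 and Id3 at 69.0%, and Id2 and Id3 at 67.8%. The longest identical run of any pair was 15 bases, so that a read of 50 bases from the coding sequence of one cannot match another exactly.

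All 3 Id genes were near the lower limit of what these libraries can resolve. Id1 had 36, 31 and 16 reads in siControl and 8, 18 and 19 in siNsun2, which is 0.574, 0.522 and 0.262 CPM against 0.127, 0.289 and 0.302 CPM. The ranges overlapped, and the log2 change of -0.91 had an interval of -1.97 to 0.14 (edgeR adjusted p = 0.146). Id2 was at 1.39, 0.522 and 1.49 CPM in siControl and at 0.924, 0.883 and 0.970 CPM in siNsun2. Here 1 siControl library, library 2, was below all siNsun2 libraries, and the log2 change was -0.29 (SE 0.30, edgeR adjusted p = 0.431).

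Id3 went the other way. It was at 1.13, 1.50 and 1.44 CPM in siControl and at 1.83, 1.51 and 2.18 CPM in siNsun2. The siNsun2 libraries were all above the siControl ones, with siNsun2 library 2 just above siControl library 2, as they were for 30.3% of all genes tested. The log2 change was 0.44 (SE 0.23, edgeR adjusted p = 0.111). Id3 was called higher when libraries were scaled by total gene counts (0.62, adjusted p = 0.0253) or by highly expressed genes (0.65, adjusted p = 0.0189), and over all 13 alternatives its adjusted p ran from 0.0189 to 0.384. As a measure of background, the density of reads over 1135 olfactory receptor genes, which ES cells are not known to use, was scaled to the span of each gene. It came to 8.64% to 13.7% of Bmp4 reads in siControl and 14.8% to 23.3% in siNsun2. For Id1 it was 5.73% to 13.9% and 16.7% to 40.2%, for Id2 6.83% to 20.0% and 15.0% to 17.8%, and for Id3 4.72% to 5.65% and 4.51% to 7.06%. For Nodal, Lefty1, Lefty2, Tdgf1 and Smad7 it was at most 1.53% in any library.

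Apart from the read ratios and marker sums above, levels were compared between genes only per length. Per kb of exon, the siControl order was Tdgf1 at 77.8, Lefty2 at 44.4, Smad7 at 29.2, Nodal at 11.9, Lefty1 at 11.0, Bmp4 at 0.883, Id3 at 0.758, Id2 at 0.465 and Id1 at 0.3904 CPM per kb. The ranges of Nodal and Lefty1 overlapped, as did those of Bmp4 and Id3 and of Id2 and Id1, so these neighbours did not differ beyond their spread. Per kb of gene span, which suits unspliced RNA better, Tdgf1 (31.1) and Lefty2 (19.3) stayed first. Lefty1 (5.72) then stood above Smad7 (4.65) and Nodal (3.38), and Bmp4 (0.278) came last. By span the range of Bmp4 (0.229 to 0.328) lay within that of Id2 (0.156 to 0.446), and those of Id1 and Id2 overlapped. The last place of Bmp4 was thus within the spread. Per kb of exon the antagonist Lefty2 was far above its copy and above the ligand, with 44.4 ± 0.556 for Lefty2, 11.0 ± 0.999 for Lefty1 and 11.9 ± 0.303 for Nodal (SD, n = 3).

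The other genes of the Nodal and activin pathway were read from a list of 28, of which 27 were tested. In it 4 genes were called higher and 13 lower, with a median log2 change of -0.15, against 25.8% higher and 24.3% lower over all genes tested. Of the 14 tested genes whose mean log2 CPM reached 5, 12 were lower, beside the 78.8% lower among all genes of that level, so that the count of lower genes was near its background. Without the 5 genes already described, 4 of 22 were higher and 10 lower. Among ligands Gdf3, a Nodal-related factor, rose from 23.0 ± 1.74 to 28.0 ± 0.831 CPM (log2 change 0.28, edgeR adjusted p = 7.25e-05). The activin subunit gene Inhbb rose from 2.03 ± 0.298 to 3.84 ± 0.358 CPM (log2 change 0.92, edgeR adjusted p = 6.94e-06). Gdf1, which overlaps Cers1 on the same strand, was listed at 0 throughout. All 4 activin receptors were called: the type I receptor Acvr1b was lower at -0.46, the type II receptors Acvr2a and Acvr2b were lower at -0.18 and -0.16, and Acvr1c was higher at 0.46. The mediators Smad2, Smad3 and Smad4 were lower at -0.21, -0.15 and -0.24, which is near the median of -0.21 for genes at their level. The co-factor Foxh1 was at 3.17 ± 0.868 and 4.02 ± 0.511 CPM (log2 change 0.34, edgeR adjusted p = 0.0791).

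Targets and modulators of the Nodal pathway were uneven. Pmepa1, a feedback inhibitor of SMAD2 and SMAD3, fell from 112 ± 3.48 to 78.7 ± 1.21 CPM, a log2 change of -0.51 (edgeR adjusted p = 9.35e-25). The convertases Pcsk6 and Furin, which cleave the Nodal precursor, were lower at -0.53 and -0.43. Skil, a co-repressor and target, was at 73.4 ± 4.25 and 71.1 ± 2.88 CPM (-0.05, edgeR adjusted p = 0.329). The antagonist Fst was at 4.25 ± 0.483 and 3.86 ± 0.297 CPM (-0.14, edgeR adjusted p = 0.459). The antagonist Cer1 was called higher at 1.63 (edgeR adjusted p = 0.0340) on 3 to 30 reads per library.

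The BMP list of 31 genes had 30 tested, with 4 called higher and 13 lower and a median log2 change of -0.14, against the same 25.8% and 24.3% over all genes. Of its 12 tested genes whose mean log2 CPM reached 5, 11 were lower, beside 78.8% of all genes of that level. Without the 5 genes described above, 4 of 25 were higher and 12 lower. The receptors Acvr1, Bmpr1a and Bmpr2 were lower at -0.21, -0.15 and -0.08, and Bmpr1b was higher at 0.34. The mediators Smad1 and Smad5 were lower at -0.23 and -0.26, and Smad9 was higher at 0.54 (edgeR adjusted p = 0.0153). The ligand Bmp7 was at 25.1 ± 2.84 and 25.5 ± 0.881 CPM (0.02, edgeR adjusted p = 0.803). The ligand Gdf6, with 20 to 90 reads per library, was higher after siNsun2 at 1.30 ± 0.234 CPM against 0.442 ± 0.121 CPM (log2 change 1.56, edgeR adjusted p = 3.72e-05). The background measure from olfactory receptor genes, which grows with gene span, was worked out only for the 9 genes described. For Smad7, with a span of 28407 bases, it came to 50.5 to 83.4 reads per library. The spans of Acvr1c, Bmpr1b and Smad9 are longer. What part of the reads of Gdf6, of these genes or of Cer1 is background is not known here. The decoy receptor Bambi was called lower at -0.44 (edgeR adjusted p = 0.0159) with overlapping ranges, and the inhibitor Smad6 was lower at -0.13. The secreted antagonist Chrd was at 2.18 CPM in both groups, and Nog, with 1 to 10 reads per library, was not tested.

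None of the 7 BMP targets tested was called by edgeR, Id1, Id2, Id3 and Id4 among them, and 0 of 7 passed at an unadjusted p under 0.05 or in DESeq2. All 7 had a mean log2 CPM under 2, a level at which 32.7% of 15139 genes were called. Id3 was called higher under 2 other scalings, as given above. Id4 was at 3.21 ± 0.239 and 3.02 ± 0.302 CPM (-0.09, edgeR adjusted p = 0.695). Of the E protein genes whose products bind Id proteins, Tcf4 (-0.17) and Tcf12 (-0.11) were lower and Tcf3 (-0.03, edgeR adjusted p = 0.551) was not called. All 3 had a mean log2 CPM of 5 or more, where 78.8% of genes were called lower. The median log2 change at that level was -0.21, so none of the 3 fell by more than it. Acvr1b, Pcsk6, Bmpr2, Smad5, Tcf4 and Tcf12 overlap annotated genes on their own strand, so that some of their reads may have been set aside. The balance of calls in both lists depended on the scaling. With DESeq2 size factors the Nodal list had 4 higher and 16 lower and the BMP list 3 higher and 13 lower. With total gene counts the Nodal list had 8 higher and 7 lower and the BMP list 8 higher and 1 lower, and with TMM on highly expressed genes 9 and 6, and 9 and 1.

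**Figure D5:**
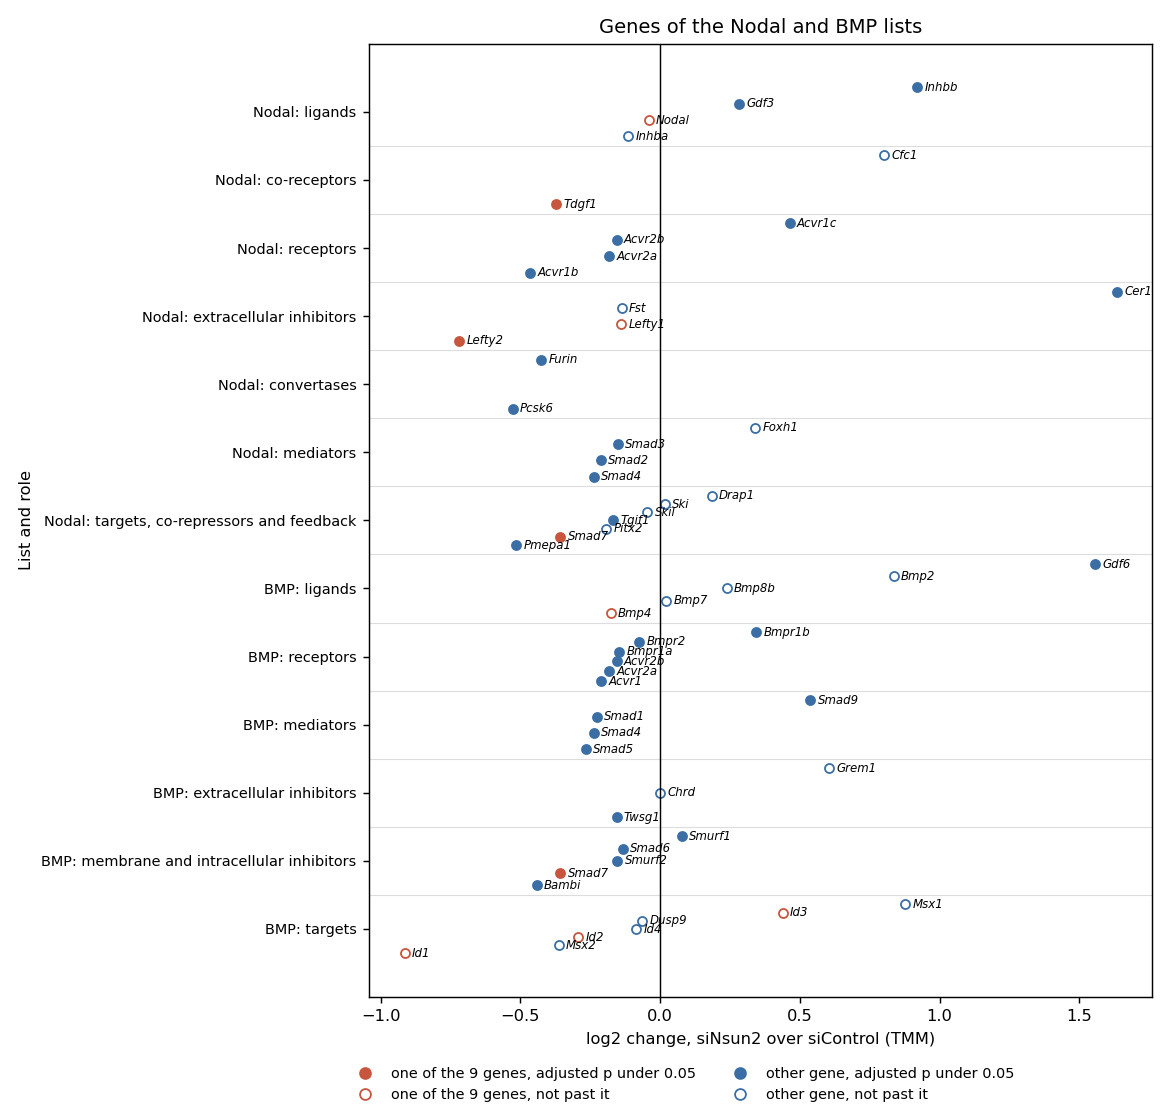
log2 change (TMM) of each tested gene of the Nodal and BMP lists, by role, with filled points for an adjusted p under 0.05 and red for the 9 genes described. Lefty2 at -0.72 is the lowest filled point, and every BMP target is an open point.

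Markers of cell types were read in the same fit. Of the 8 ES cell markers tested 7 were lower and 0 higher (0 also at an unadjusted p under 0.05 and in DESeq2), Klf4 (-0.81) and Tfcp2l1 (-0.66) the most, while Pou5f1 (0.01) was not called. All 8 had a mean log2 CPM of 5 or more, where 78.8% of genes were lower, so that this count was near its background. Feeder fibroblast markers summed to 45.2 to 47.3 CPM in siControl and 32.5 to 33.6 CPM in siNsun2, with 3 of 5 lower and none at 0 counts. Trophoblast markers summed to 15.4 to 19.04 and 23.3 to 24.1 CPM, with 2 of 3 higher. Most of that sum was Tfap2c, at 16.3 and 21.8 CPM as group means, while Cdx2 (0.20 and 0.23 CPM) was not called. Both neural markers tested were higher, on 72 to 162 reads per library for Pax6 and 5 to 41 for Neurog1. Over all genes tested 25.8% were called higher and 24.3% lower. The olfactory background was not worked out for any marker. Epiblast markers summed to 2.56 to 4.07 and 3.72 to 3.94 CPM, with 0 of 3 called by edgeR, at an unadjusted p under 0.05 or by DESeq2. Of 3 primitive streak markers tested 1 was lower, and of 3 endoderm markers tested 1 was higher and 1 lower. The part of these marker values in the changes of Lefty2, Tdgf1 and Smad7 was not tested.

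The genes whose log2 CPM ran most like that of Nodal over the 6 libraries were Zfp280b (Pearson r = 0.98), Gar1 (0.95) and Lmtk3 (0.95), among 10056 genes whose mean log2 CPM reached 3. For Id1 they were Tsen34, Alas1 and Cnnm3, each at 0.98. With so few libraries, which share groups and depth, 22 genes reached 0.95 with Id1 and 2 with Nodal, and the values are a description only.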

How the data were processed

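caRNA was sequenced from 3 siControl and 3 siNsun2 mES cell libraries. Per the study's methods, the authors extracted RNA from the chromatin pellet, depleted ribosomal RNA and made stranded libraries. Submitters' processing notes name Trimmomatic (0.39), HISAT2 (2.2.1) and HTSeq (0.12.4) with mm10, while the methods also name featureCounts. The deposited values were raw counts by gene in a separate table for each library, and the authors' spike-in scaling could not be repeated since the tables held 0 ERCC lines. The feature type and strand option of the counting are not given in the sources used here. Summary lines, such as that for reads given to no feature, did not enter library sizes. Identifiers were matched to GENCODE M21 (GRCm38), in which 99.93% were found.

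Using R 4.3.3 with edgeR 4.0.16 and limma 3.58.1, a robust, two-sided quasi-likelihood test was fitted to the 6 libraries, with TMM scaling, filterByExpr at its default of 10 counts and Benjamini-Hochberg adjustment over 27603 genes. CPM values are TMM-scaled, and standard errors and 95% intervals come from the same fit. DESeq2 1.42.0, other scalings and filters, a replicate block and leaving out each library were alternatives. The fit was first tested on simulated counts, with 50 genes changed at each log2 change of -1, -0.5, 0.5 and 1. Of these 94% to 100% were recovered, and 0.045% of unchanged genes were called. The simulation held no shift with level and changed no weakly expressed genes. It therefore does not test the choice of scaling or the power for genes such as Id1. Replicates differed by more than sampling noise in every pair. Coding sequences were taken from GENCODE M21 transcripts and aligned with Biopython 1.88. Promoters and proteins of mouse genes were not used here, and 1 neighbour of the Lefty genes is not reported here.

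The genes and lists were chosen with earlier results of these data known. Named genes were the 9 genes, Nsun2, a fixed part of the lists, the neighbours of the Lefty genes and the 3 genes most like Nodal and Id1. Acvr1c, Pcsk6, Furin, Bmpr1b, Sde2, H3f3a, Ephx1, Klf4, Tfcp2l1, Pou5f1, Inhbb, Gdf6 and Smad9 were named after their values were seen.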

Additional observations from a re-analysis of the deposited data

Results flagged for a closer look

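A single mES cell library labelled Pscp1 WT (the gene is Pspc1), replicate 3, belongs to another experiment and entered no comparison, and it has no replicate here. Scaled together with the 6 siRNA libraries, it held 3 of the 9 genes above the range of the siControl libraries, which is what drew attention to them. Smad7 was at 364 CPM, against 124 to 129 CPM in siControl. Bmp4 was at 8.35 CPM, against 1.55 to 2.23 CPM. Id1 was at 0.780 CPM from 61 reads, against 0.249 to 0.547 CPM. The same library was below the siControl range for Nodal (21.4 CPM against 23.3 to 24.4), Tdgf1 (181 against 187 to 198), Lefty2 (31.6 against 109 to 111) and Lefty1 (2.84 against 16.9 to 20.3), and within it for Id2 and Id3. The share of all genes outside the siControl range in this library was not counted, so the numbers above and below are a description only. The library also differed as a whole, with 27807 genes detected against 36407 to 36464 in siControl. It held 91990658 reads in genes against 62989044 to 66832780, and Nsun2 was at 258 CPM against 120 to 127 CPM. Genotype, transfection and preparation cannot be told apart between this library and the others, and the differences were not tested.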

How the results depend on the processing

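Lefty2, Tdgf1, Smad7 and Nsun2 kept their direction and their call under all 13 alternatives, with log2 changes of -0.80 to -0.51 for Lefty2, -0.45 to -0.16 for Tdgf1, -0.44 to -0.15 for Smad7 and -0.42 to -0.13 for Nsun2. With total gene counts the sign turned for Nodal (0.14, adjusted p = 0.0667), Lefty1 (0.042) and Bmp4 (0.0045), and Id3 was called (0.62). With TMM on highly expressed genes (mean log2 CPM of 5 or more) it turned for Nodal (0.17, adjusted p = 0.0270), Lefty1 (0.070) and Bmp4 (0.033), Id3 was called (0.65), and 5 of the 9 genes were called in all. These scalings left 9 and 10 genes of the BMP list called, against 17. The adjusted p of Nodal ran from 0.0270 to 0.794 over its alternatives. A stricter filter gave Nodal 0.027 and removed Id1. Lefty1 was called with DESeq2 size factors (-0.20, adjusted p = 0.0159) and with the DESeq2 test (-0.22, adjusted p = 0.0272). Leaving out 1 library gave log2 changes of -0.11 to 0.038 for Nodal, positive only without siNsun2 library 1, -0.20 to -0.073 for Lefty1, -0.35 to -0.02 for Bmp4, -1.20 to -0.62 for Id1, -0.64 to -0.06 for Id2 and 0.30 to 0.57 for Id3. It left 11769 to 13085 genes called, 13844 with all libraries, and 3 to 4 of the 9 genes. The replicate numbers did not pair the libraries, with correlations of deviations between same-numbered libraries of 0.00013, 0.025 and -0.0021. With the replicate block 13698 genes were called, and it changed no call among the 9 genes. The cause of these changes was not tested. Depth limits the Id genes and Bmp4 the most: with 8 to 147 reads per library, the log2 change of Tdgf1 lies within the 95% intervals of Bmp4 (-0.61 to 0.26), Id1 (-1.97 to 0.14) and Id2 (-0.89 to 0.31), but not of Id3 (-0.03 to 0.91).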

Other observations

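The human genes with the same symbols were read in 12 libraries of caRNA from K562, a leukaemia line, as values without a test. NODAL, LEFTY1, LEFTY2, TDGF1 and BMP4 were near the limit of detection, with 0 to 28 reads per library and at most 0.423 CPM. SMAD7 was present, at 15.7 ± 2.01 CPM with shControl and 22.9 ± 1.62 CPM with shMBD6 in TET2 WT cells, and at 35.0 ± 2.21 and 36.3 ± 2.50 CPM in TET2 KO cells (SD, n = 3 each). ID1 means ran in the opposite order, at 12.9 ± 2.98, 5.25 ± 0.672, 3.79 ± 0.691 and 3.41 ± 1.88 CPM. In TET2 KO cells the shControl and shMBD6 libraries overlapped for SMAD7 (32.8 to 37.2 and 34.4 to 39.1 CPM) and for ID1 (3.00 to 4.24 and 2.16 to 5.57 CPM). The full order of the groups was therefore not resolved, and a relation between the genes was not tested. ID2 lay between 2.15 and 3.57 CPM and ID3 between 0.966 and 1.43 CPM as group means.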
